A study of Mus musculus with 8 samples.

Results

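The miR-101 and miR-26 families were described in 8 RNA pools of mouse gastrocnemius muscle, as measured by RT-qPCR on a miRNA panel. Members were the assays whose name, without its species prefix, begins with miR-101 or with miR-26 followed by a or b. There were 7 such assays among the 688 miRNAs of the panel that were used. Both families are known to target the mRNA of Ezh2, and they were selected on their lower CDTX over PBS ratios, which were already known. The CDTX contrast is therefore given as a description without a test. Surgery and day were not the stated ground of the choice, but earlier results of these data were known. The change of the CDTX contrast between days is built from the same ratios, so its test is not independent of the choice.

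The pools came from young adult female C57Bl/6 mice without any transgene, which had a transection of the thoracic spinal cord (SCI) or a SHAM operation. Each mouse then received cardiotoxin (CDTX), a snake venom toxin that destroys myofibers, in the gastrocnemius of the left hindlimb and PBS in that of the right. Muscles were taken at D2 or D4, that is 2 or 4 days later, so each day has PBS + SHAM and CDTX + SHAM pools beside PBS + SCI and CDTX + SCI pools. There was 1 pool per condition, made of 3 muscles, so no comparison of 2 pools has an error between mice, and a CDTX pool and the PBS pool that it is set against may hold muscles of the same animals. SCI together with CDTX is the setting in which neurogenic heterotopic ossification, bone within muscle, forms in this model, and naive muscle was not analysed here.

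Ezh2 is the methyltransferase of a Polycomb repressive complex, which silences genes by methylating histone H3. In mouse muscle progenitors it keeps muscle genes silent, and its level falls as the cells differentiate. In mouse or human cells, miR-26a and miR-101 bind the 3′ end region of its mRNA and lower its translation and stability. A miRNA finds its targets mainly through the seed, bases 2 to 8 from its 5′ end, so members that share a seed can bind the same sites.

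The mature sequences are shown because they define which assays can stand for the same seed and how alike the miR-101 assays are. They were matched to RefSeq on the mouse build GRCm38.p6 for all 7 members, and bases 2 to 8 are in capitals.
miR-101-3p: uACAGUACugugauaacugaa
miR-101b-3p: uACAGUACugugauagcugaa
miR-101a-5p: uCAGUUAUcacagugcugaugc
miR-26a-5p: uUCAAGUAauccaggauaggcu
miR-26b-5p: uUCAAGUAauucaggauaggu
miR-26b-3p: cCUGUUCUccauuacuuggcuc
miR-26a-1-3p: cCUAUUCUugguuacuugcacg
The assay named miR-101-3p carries a human name and its target is the sequence of mouse miR-101a-3p. It differs from the panel's target for miR-101b-3p by the single substitution A16G, counted from the 5′ end, so the seed is the same in both panel targets. Whether each of these assays also detects the target of the other was not tested, so they may not be independent measures. miR-26a-5p and miR-26b-5p differ by C11U and C21U, again outside the seed, and by length, with 22 bases in miR-26a-5p and 21 in miR-26b-5p. No other entry of the 750 on the panel list has either seed, so 2 entries carry the miR-101 seed and 2 the miR-26 seed. The passenger strands miR-101a-5p, miR-26b-3p and miR-26a-1-3p, made from the opposite arms of the hairpins, each have a seed of their own.

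The loci lie on different chromosomes and mostly inside protein-coding genes. miR-101-3p maps to chr4:101346957-101346977 on the minus strand, within the lncRNA gene E130102H24Rik. miR-101b-3p maps to chr19:29135339-29135359 on the plus strand, within Rcl1. The RefSeq entry of miR-101b starts 1 base earlier than the panel's target, which would shift its seed. miR-26a-5p has 2 genes with the same mature sequence, at chr9:119031811-119031832 within Ctdspl and at chr10:126995543-126995564 within Ctdsp2, both on the plus strand. An assay of the mature miRNA cannot tell these genes apart. miR-26b-5p maps to chr1:74394324-74394344 on the plus strand, within Ctdsp1. The host genes of the miR-26 loci encode a family of small phosphatases that act on the tail of RNA polymerase.

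Of the 7 members, 3 were measured in every pool, meaning that the Cp was 32 or earlier in all 8. These were miR-101-3p, miR-101b-3p and miR-26a-5p. Cp is the amplification cycle at which the second derivative of the signal is at its maximum. A difference of 1 cycle stands for a 2-fold difference in template, with later cycles for less. miR-26b-5p was within the limit in the 4 PBS pools and in CDTX + SCI at D2 only. The other 3 members were above 32 in every pool, and miR-26a-1-3p was at 36, the end of the record, in all of them. The panel as a whole gave 141 to 165 miRNAs within the limit per pool and 116 in all pools. No member has a second assay on the panel. Over the 14 miRNAs that do, the root mean square of 103 differences between the assays' log2 ratios was 0.34 and the maximum 1.07, which is the only error of measurement that could be set beside the values.

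miR-101-3p, the guide strand of the miR-101a gene, had the later Cp of the miR-101 pair. In the PBS pools its Cp was 28.57 (SHAM D2), 28.64 (SCI D2), 29.14 (SHAM D4) and 29.29 (SCI D4). In the CDTX pools it was 30.81 (SHAM D2), 30.44 (SCI D2), 31.41 (SHAM D4) and 30.83 (SCI D4). Every CDTX pool was later than every PBS pool. Set against the mean Cp of 3 reference miRNAs (miR-125b-5p, miR-24-3p, miR-23b-3p), the level was 5.76% to 7.28% of the reference in the PBS pools and 1.80% to 3.29% in the CDTX pools. The lowest level was that of CDTX + SHAM at D4.

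miR-101b-3p, whose panel target has the same seed and which comes from another chromosome, had a Cp of 27.83 (SHAM D2), 27.98 (SCI D2), 28.42 (SHAM D4) and 28.43 (SCI D4) in the PBS pools. In the CDTX pools the Cp was 29.68 (SHAM D2), 29.93 (SCI D2), 30.63 (SHAM D4) and 29.68 (SCI D4). The injections again did not overlap. Relative to the reference the PBS pools held 10.5% to 11.9% and the CDTX pools 3.09% to 5.69%. CDTX + SHAM at D4 was again lowest, and the other 3 CDTX pools lay close together.

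miR-26a-5p, the miR-26 member known to favour muscle differentiation in mouse through Ezh2, had the earliest Cp of the families. Its Cp in the PBS pools was 27.03 (SHAM D2), 26.99 (SCI D2), 27.30 (SHAM D4) and 27.53 (SCI D4). Its Cp in the CDTX pools was 29.02 (SHAM D2), 28.50 (SCI D2), 29.13 (SHAM D4) and 29.23 (SCI D4). Here too no CDTX pool reached the PBS pools, but the lowest CDTX pool was not that of the miR-101 assays, CDTX + SHAM at D4. Relative to the reference, CDTX + SCI held the highest CDTX level at D2, 12.6%, and the lowest at D4, 6.19%, against 8.98% and 8.74% in CDTX + SHAM. CDTX + SCI at D2 was also the highest CDTX pool of miR-101-3p, at 3.29%, but not of miR-101b-3p. The PBS pools held 19.5% to 25.9%.

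**Figure D1:**
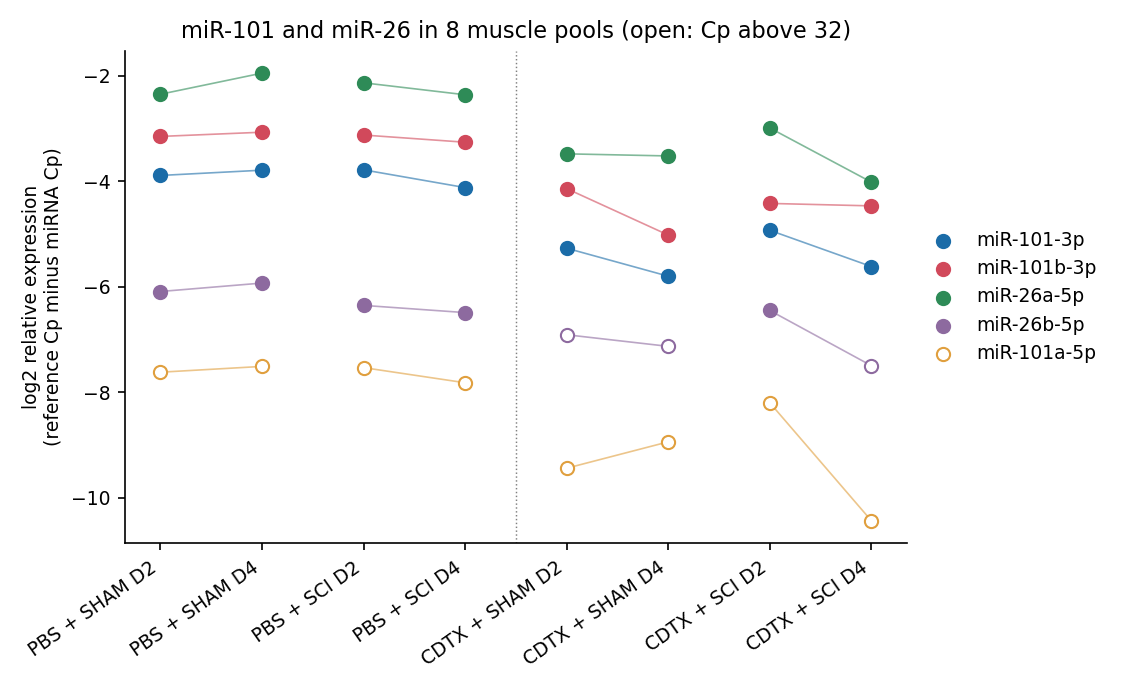
Level of the miR-101 and miR-26 members in each of the 8 pools, on the vertical axis as log2 relative expression (mean Cp of 3 references minus Cp of the miRNA), with 1 point per pool, open where the Cp was above 32, and a line between D2 and D4 of the same injection and surgery. The CDTX pools of miR-101-3p, miR-101b-3p and miR-26a-5p lie below all PBS pools of the same miRNA.

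The remaining members are given as Cp values, since most lie past the limit. miR-26b-5p had a Cp of 30.77 to 31.66 in the PBS pools and of 31.96 to 32.74 in the CDTX pools. Relative to the reference it overlapped between the injections by 0.04 on the log2 scale, through CDTX + SCI at D2. Just inside the limit lay that pool of miR-26b-5p, at 31.96, and just outside it miR-101a-5p in PBS + SHAM at D2, at 32.30. miR-101a-5p, the passenger strand of the miR-101a hairpin, had a Cp of 32.30 to 32.99 in the PBS pools and 33.71 to 35.65 in the CDTX pools. miR-26b-3p lay between 34.29 and 36 with no separation of the injections.

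Cp values of different assays depend on the efficiency of each primer set and are not copy numbers, but the change of a difference within a pool needs no reference. miR-101b-3p came ahead of miR-101-3p in all 8 pools. The difference was 0.66 to 0.86 cycles in the 4 PBS pools. In the CDTX pools it was 1.13 (SHAM D2), 0.51 (SCI D2), 0.78 (SHAM D4) and 1.15 (SCI D4), a wider range on both sides. Over all 8 pools it was 0.82 ± 0.22 (SD, n = 8 pools). The strands of the miR-101a hairpin, miR-101a-5p and miR-101-3p, kept a difference of -3.75 to -3.70 in the PBS pools and ranged from -4.82 to -3.14 in the CDTX pools, where the Cp of the passenger strand was 33.71 or later.

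The first comparison asked how muscle damage by CDTX changed the levels within each surgery and day. The 3 members measured in all pools were lower with CDTX in all 4 comparisons, by 1.81-fold to 4.03-fold, and 10 of the 12 ratios were at least 2-fold. At least 2-fold lower were 2 members in SHAM at D2, where 16.7% of the 132 miRNAs tested were, and 2 members in SCI at D2, where 18.7% of 134 were. At D4 all 3 passed in both surgeries, against 24.8% of 125 miRNAs in SHAM and 24.1% of 133 in SCI. Since the members were proposed for these ratios, nothing is read from the counts.

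For miR-101-3p the log2 ratio of CDTX over PBS was -1.38 (SHAM D2), -1.15 (SCI D2), -2.01 (SHAM D4) and -1.50 (SCI D4), with a mean of -1.51 ± 0.36 (SD, n = 4 pairs of pools), or 2.84-fold lower. For miR-101b-3p it was -0.99 (SHAM D2), -1.30 (SCI D2), -1.95 (SHAM D4) and -1.21 (SCI D4), with a mean of -1.36 ± 0.41 (SD, n = 4), or 2.57-fold lower. For miR-26a-5p it was -1.13 (SHAM D2), -0.86 (SCI D2), -1.57 (SHAM D4) and -1.66 (SCI D4), with a mean of -1.30 ± 0.38 (SD, n = 4), or 2.47-fold lower. The means of the members thus differed from each other by less than their spread over surgery and day. Over the 116 miRNAs measured in all pools, the median of the same mean was -0.03 with quartiles of -0.88 and 0.74. From the lowest, miR-101-3p was at place 10, miR-101b-3p at 15 and miR-26a-5p at 17. All 3 had every CDTX pool below every PBS pool, as did 34.5% of the 116, while 31% had every CDTX pool above every PBS pool. miR-26b-5p could be compared only in SCI at D2, where its log2 ratio was -0.10, or 0.32 with miR-23b-3p alone as reference. That comparison passed the limit through a CDTX Cp of 31.96, and in the others the CDTX pool was past it. Relative to the reference, those CDTX pools held 0.83% against 1.47% with PBS (SHAM D2), 0.72% against 1.64% (SHAM D4) and 0.55% against 1.12% (SCI D4). The ratio at SCI D2 thus does not stand for the other comparisons of miR-26b-5p.

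**Figure D2:**
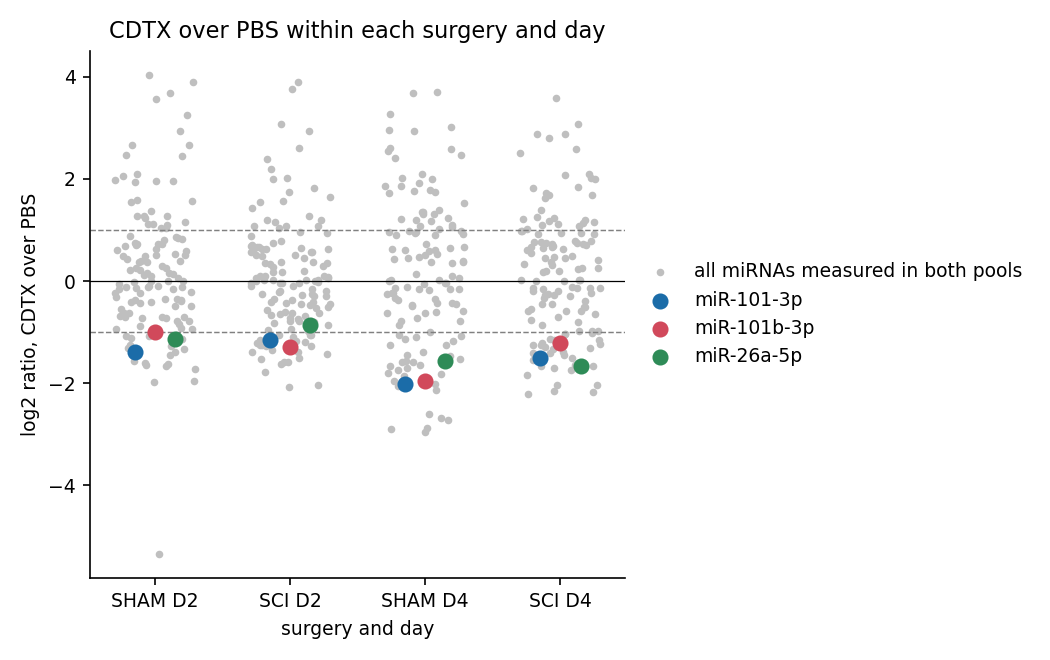
Log2 ratio of CDTX over PBS on the vertical axis, for each surgery and day on the horizontal axis, with 1 grey point for each miRNA within the Cp limit of 32 in both pools and coloured points for miR-101-3p, miR-101b-3p and miR-26a-5p, and dashed lines at a 2-fold difference. These 3 lie between -2.01 and -0.86, and some other miRNAs lie lower in each comparison.

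The 12 ratios were below 0 under each of 6 normalizations: the 3 references together, each alone, the global mean of the Cp values and the deposited normalized values. Their size moved with the reference, from -2.38 to -0.73 for miR-101-3p, from -2.32 to -0.67 for miR-101b-3p and from -2.06 to -0.44 for miR-26a-5p. The choice of reference shifted all ratios of a CDTX comparison by -0.40 to 0.42. In SHAM at D2 57.7% of the miRNAs that passed 2-fold were higher, against 77.4% with miR-23b-3p alone and 35.7% in the deposited values.

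The miRNAs of skeletal muscle and of leukocytes moved with the same contrast. Of the striated muscle list (miR-1-3p, miR-133a-3p, miR-133b, miR-206, miR-486-5p), 5 of 5 were at least 2-fold lower with CDTX at D2 in both surgeries and 4 of 5 at D4. The exception at D4 was miR-206, at 1.53 (SHAM) and 0.93 (SCI) on the log2 scale. The summed level of the list was 6678% to 10237% of the reference in the PBS pools and 1613% to 2456% in the CDTX pools. The leukocyte list (miR-223-3p, miR-142-3p, miR-142-5p, miR-155-5p, miR-150-5p) summed to 39.1% to 42.6% in the PBS pools and 176% to 315% in the CDTX pools, with 3 of 4 measured members higher in SHAM at D2 and 2 of 3 in each other comparison, and with 1 (miR-150-5p) at least 2-fold lower in each D4 comparison. The part of these changes in the members' ratios was not tested, and in whole muscle fewer cells of a type cannot be told apart from less RNA per cell. Endothelial miRNAs (miR-126-3p, miR-126-5p) summed to 125% to 159% with PBS and 52.8% to 148% with CDTX. miRNAs of smooth muscle and fibroblasts (miR-143-3p, miR-145-5p) summed to 153% to 187% with PBS and 65.2% to 132% with CDTX. Erythroid miRNAs (miR-451a, miR-144-3p) were between 1.12% and 3.13% in all pools. The neuronal miRNAs miR-9-5p and miR-124-3p were above a Cp of 32 in every pool.

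The members were not alike in how the CDTX ratio stood with and without SCI. At D4, the ratio with SCI minus that with SHAM was 0.51 for miR-101-3p, 0.74 for miR-101b-3p and -0.09 for miR-26a-5p. The miR-101 pair was thus less reduced with CDTX in the SCI pools than in the SHAM pools at D4, while miR-26a-5p differed by less than the error between assays. At D2 it was 0.23, -0.31 and 0.27 in the same order. The median over the 116 miRNAs was -0.05 at D2 and -0.06 at D4, and at D4 0 of them passed 2-fold upward and 2 downward. A smaller reduction with SCI at D4 was not particular to the miR-101 pair. In the striated muscle list, the CDTX ratio was -2.89 (SHAM) and -2.03 (SCI) for miR-1-3p and -2.68 and -1.85 for miR-133a-3p. In the same order it was -1.75 and -1.48 for miR-133b and -1.81 and -1.41 for miR-486-5p. For miR-206, which was higher with CDTX, it was 1.53 and 0.93. None of these differences has a replicate.

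The next comparison asked how SCI changed the levels within each injection and day. None of the 12 ratios of the 3 members reached 2-fold. In PBS muscle 0.658% of the 152 miRNAs at D2 were 2-fold lower and 0.658% higher, and 0% of 137 either way at D4. In CDTX muscle 0% of 137 were lower and 1.46% higher at D2, and 8.92% of 157 were lower and 0% higher at D4.

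For miR-101-3p the log2 ratio of SCI over SHAM was 0.11 (PBS D2), 0.34 (CDTX D2), -0.33 (PBS D4) and 0.18 (CDTX D4). For miR-101b-3p it was 0.03 (PBS D2), -0.28 (CDTX D2), -0.19 (PBS D4) and 0.55 (CDTX D4). For miR-26a-5p it was 0.22 (PBS D2), 0.49 (CDTX D2), -0.41 (PBS D4) and -0.50 (CDTX D4). In CDTX muscle at D4 miR-101b-3p had the highest ratio of all 157 miRNAs, whose median was -0.29, and the choice of reference does not alter that place. Its ratio there was 0.50 to 0.84 over the 6 normalizations, and miR-101-3p was at place 11 from the top. miR-26b-5p could be compared in PBS muscle, at -0.26 (D2) and -0.56 (D4). The 12 ratios of the 3 members ran from -0.50 to 0.55, within the largest difference between assays of the same miRNA, 1.07.

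Across all 8 pools the effect of SCI was tested for the 116 miRNAs with limma, with injection, day and their interaction in the model and 3 residual degrees of freedom per miRNA. For miR-101-3p the SCI term was 0.08 (SE 0.15, 95% confidence interval -0.27 to 0.42) with an adjusted p of 0.861 in limma after Benjamini-Hochberg. For miR-101b-3p it was 0.03 (SE 0.17, interval -0.36 to 0.41) with a limma adjusted p of 0.955. For miR-26a-5p it was -0.05 (SE 0.19, interval -0.49 to 0.39), also with a limma adjusted p of 0.955. A mean effect of SCI was thus not detectable for the members. The intervals lie inside a 2-fold change in either direction, but they cannot exclude one. CDTX and PBS pools, which may hold muscles of the same animals, were fitted as independent, and error between mice is not covered. In limma 0 of the 116 miRNAs passed an adjusted p of 0.05, and 15 (12.9%) had an unadjusted p under 0.05. The fit counts an effect of SCI that turns with injection or day as error, and pools of other conditions stand in for replicates.

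**Figure D3:**
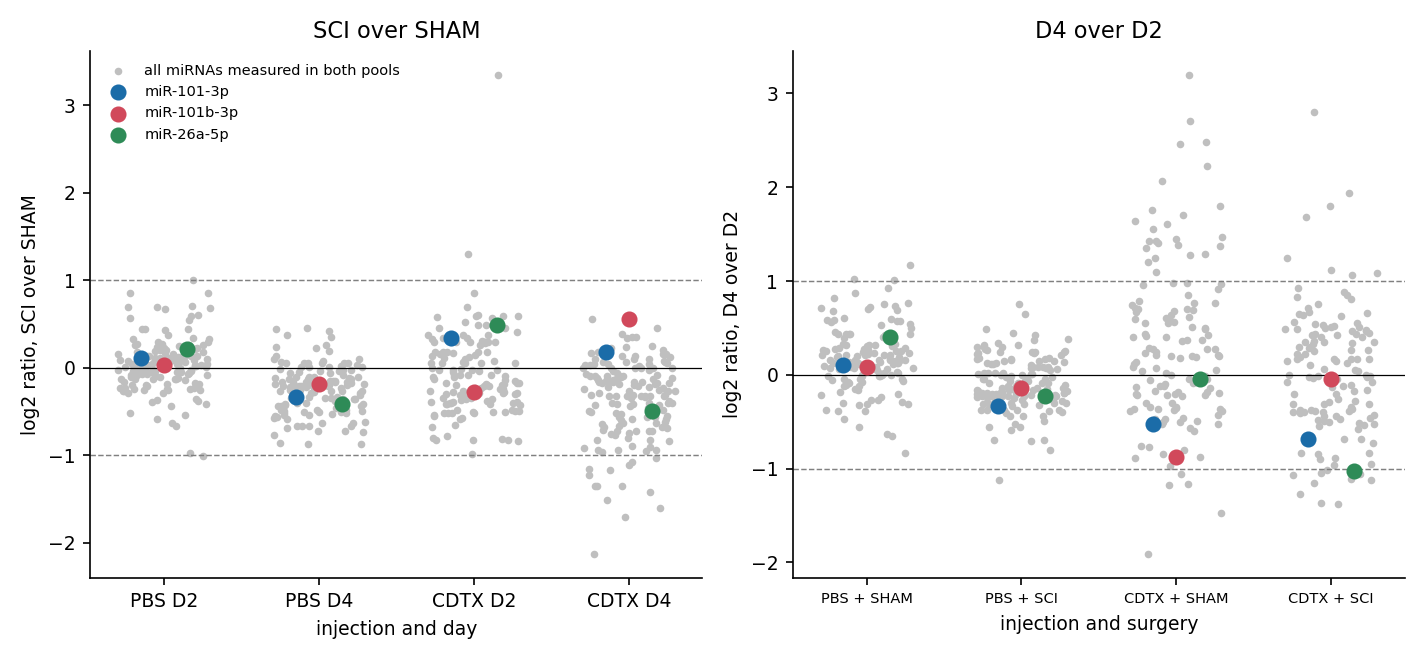
Log2 ratio of SCI over SHAM (left) and of D4 over D2 (right) on the vertical axes, for each injection with day or surgery on the horizontal axes, with 1 grey point for each miRNA within the Cp limit of 32 in both pools, coloured points for the members and dashed lines at a 2-fold difference. miR-101b-3p is the highest point of SCI over SHAM in CDTX muscle at D4, at 0.55, where miR-26a-5p lies at -0.50.

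The last comparison asked how the levels changed between D2 and D4. In PBS muscle the members stayed between -0.34 and 0.40 on the log2 scale, and with CDTX they lay between -1.03 and -0.04. For miR-101-3p the log2 ratio of D4 over D2 was 0.10 (PBS + SHAM), -0.53 (CDTX + SHAM), -0.34 (PBS + SCI) and -0.69 (CDTX + SCI). For miR-101b-3p it was 0.08 (PBS + SHAM), -0.88 (CDTX + SHAM), -0.14 (PBS + SCI) and -0.05 (CDTX + SCI). For miR-26a-5p it was 0.40 (PBS + SHAM), -0.04 (CDTX + SHAM), -0.23 (PBS + SCI) and -1.03 (CDTX + SCI). After CDTX, miR-101-3p was lower at D4 in both surgeries and under all 6 normalizations, though by less than 2-fold. The largest reduction among the 3 members was that of miR-101b-3p in CDTX + SHAM and that of miR-26a-5p in CDTX + SCI. The values close to 0 changed sign with the reference, that of miR-101b-3p in CDTX + SCI between -0.19 and 0.16 and that of miR-26a-5p in CDTX + SHAM between -0.31 and 0.31.

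At least 2-fold was 1 of the 12 ratios, that of miR-26a-5p in CDTX + SCI, where 8.89% of 135 miRNAs fell 2-fold or more and 5.93% rose, and it was -0.82 with miR-125b-5p alone. In CDTX + SHAM 3.65% of 137 miRNAs were 2-fold lower and 18.2% higher. In the PBS pools 0% of 140 were lower and 2.14% higher with SHAM, and 0.685% of 146 were lower and 0% higher with SCI.

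Whether the CDTX difference was larger at D4 than at D2 was asked in the same limma fit, where SHAM and SCI pools stand in as replicates. This term is built from the CDTX over PBS ratios for which the members were proposed, so its p-values for them are not independent of that choice. The interaction of CDTX and day was -0.49 for miR-101-3p (SE 0.29, limma adjusted p 0.310), -0.44 for miR-101b-3p (SE 0.33, limma adjusted p 0.391) and -0.62 for miR-26a-5p (SE 0.38, limma adjusted p 0.315). The 95% intervals were -1.17 to 0.19, -1.20 to 0.33 and -1.51 to 0.27, so neither no change nor a further 2-fold reduction can be set aside. Of the 116 miRNAs, 0.862% passed an adjusted p of 0.05 as lower at D4 and 4.31% as higher, and 26.7% had an unadjusted p under 0.05. The count of calls fell from 6 to 0 without PBS + SHAM D2, without PBS + SCI D2 or without CDTX + SHAM D4.

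The crossing of the members with surgery and day in CDTX muscle was also present without any reference. The Cp difference of miR-101b-3p over miR-26a-5p was -0.80 (SHAM D2), -0.99 (SCI D2), -1.12 (SHAM D4) and -0.90 (SCI D4) in the PBS pools. In the CDTX pools it was -0.66 (SHAM D2), -1.43 (SCI D2), -1.50 (SHAM D4) and -0.45 (SCI D4). The PBS pools thus stayed within 0.32 of each other, while the CDTX pools lay on both sides of them. From D2 to D4 the difference changed by -0.84 in CDTX + SHAM and by 0.98 in CDTX + SCI, against -0.32 in PBS + SHAM and 0.09 in PBS + SCI. miR-101-3p over miR-26a-5p changed the same way but less, by -0.49 in CDTX + SHAM and 0.34 in CDTX + SCI. The larger of these changes exceed the 0.34 between assays of the same miRNA but not its maximum of 1.07, and each CDTX value rests on 1 pool.

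**Figure D4:**
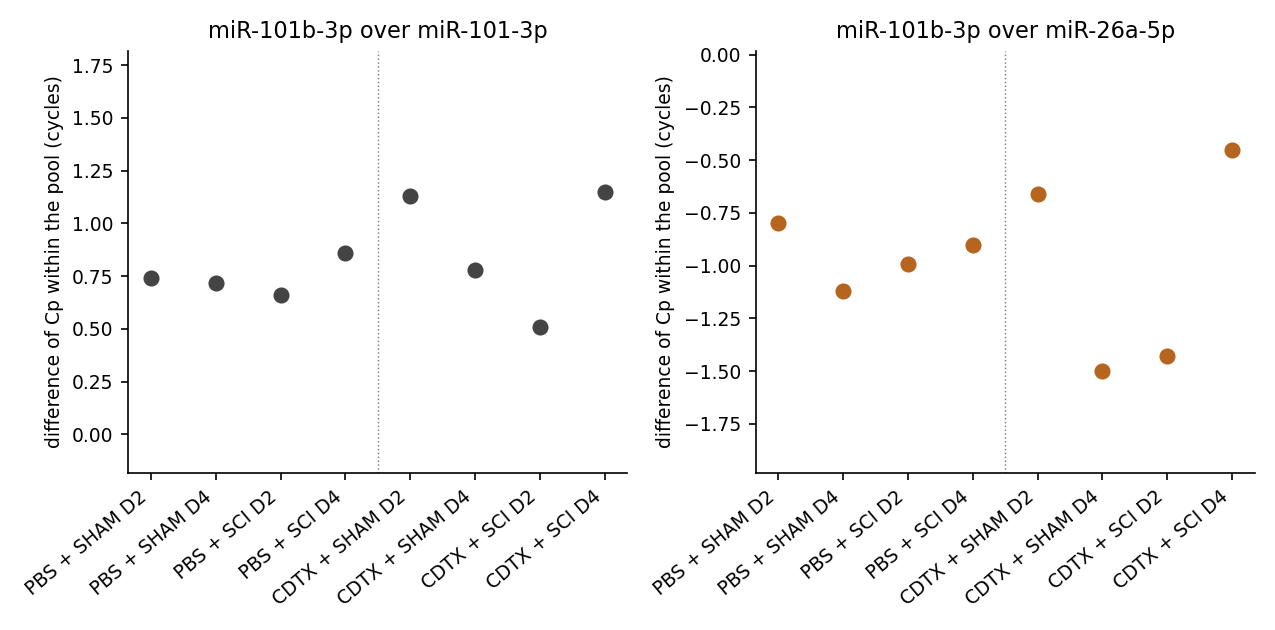
Difference of Cp within each pool, as log2 signal of miR-101b-3p over miR-101-3p (left) and over miR-26a-5p (right), in cycles on the vertical axes, with 1 point per pool and the PBS pools left of the dotted line. The PBS pools span 0.66 to 0.86 on the left and -1.12 to -0.80 on the right, and the CDTX pools reach past them on both sides.

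Other miRNAs listed as reported to target Ezh2 were set beside the members for the CDTX contrast. Of a list of 9, 5 were within the Cp limit in all pools, while miR-217-5p was at 36 throughout, miR-124-3p was above 32 in every pool, the assay named miR-137 without an arm was at 35.51 or later, and miR-138-5p was measured in some pools. With CDTX, 1 listed miRNA was at least 2-fold higher and 0 lower in each of the 4 comparisons, out of 5 or 6 measured. The higher share of all miRNAs was 22.7% (SHAM D2), 17.2% (SCI D2), 28% (SHAM D4) and 21.8% (SCI D4). The lower share was 16.7%, 18.7%, 24.8% and 24.1% in that order. With so few listed miRNAs measured, both counts are near these shares, and nothing is read from them. The medians of the list were 0.21, -0.12, 0.38 and 0.37 in that order, beside 0.01, -0.03, 0.02 and 0.01 over all miRNAs.

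The one that rose was miR-214-3p, which targets Ezh2 in mouse muscle cells. It maps to chr1:162223438-162223459 on the plus strand, and its sequence is shown for its seed, again in capitals, which is that of neither family.
miR-214-3p: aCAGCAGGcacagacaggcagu
Its Cp in the PBS pools was 27.85 (SHAM D2), 28.66 (SCI D2), 28.53 (SHAM D4) and 28.73 (SCI D4), and in the CDTX pools 27.14 (SHAM D2), 27.50 (SCI D2), 25.83 (SHAM D4) and 26.78 (SCI D4). Its CDTX over PBS log2 ratio was 1.57 (SHAM D2), 1.81 (SCI D2), 2.96 (SHAM D4) and 1.99 (SCI D4), opposite in sign to those of miR-101-3p, miR-101b-3p and miR-26a-5p in the same pools. In CDTX muscle at D4 it was lower with SCI, at -1.35. The let-7 members let-7a-5p, let-7b-5p and let-7c-5p stayed between -0.52 and 0.52 with CDTX, and miR-98-5p of the same family between -0.10 and 0.78.

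**Figure D5:**
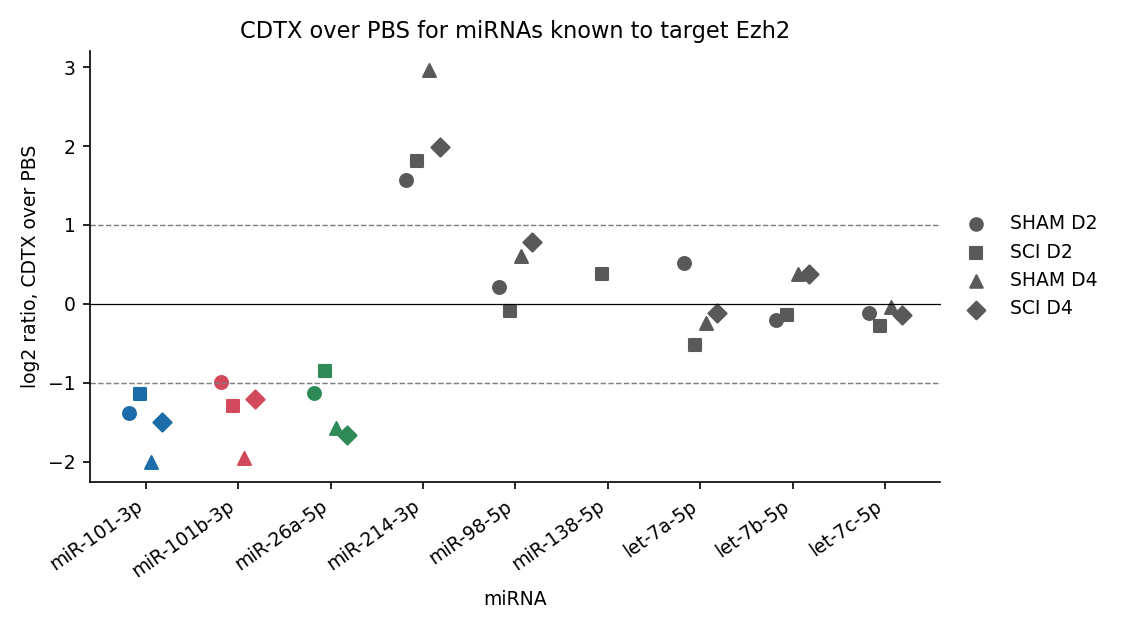
Log2 ratio of CDTX over PBS on the vertical axis for miR-101-3p, miR-101b-3p and miR-26a-5p and for other miRNAs reported to target Ezh2, where both pools were within the Cp limit of 32, with 1 symbol per surgery and day and dashed lines at a 2-fold difference. These 3 members lie between -2.01 and -0.86, miR-214-3p between 1.57 and 2.96 and the others between -0.52 and 0.78.

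The patterns most like those of the members over the 8 pools came largely from other miRNAs that were lower with CDTX. For miR-101-3p the highest Pearson correlations were those of miR-378a-3p (0.996), miR-30c-5p (0.994), miR-30a-5p (0.993), miR-30b-5p (0.993) and miR-100-5p (0.992). For miR-101b-3p they were those of miR-30d-5p (0.995), miR-30b-5p (0.983), miR-30c-5p (0.975), miR-101-3p (0.967) and miR-29c-3p (0.961). For miR-26a-5p they were those of miR-151a-5p (0.989), miR-30e-3p (0.987), miR-22-3p (0.984), miR-434-3p (0.982) and miR-30a-5p (0.972). Of the 12 miRNAs named, 5 belong to the miR-30 family, of which 7 were measured in all pools. The members correlated at 0.967 (miR-101-3p and miR-101b-3p), 0.964 (miR-101-3p and miR-26a-5p) and 0.888 (miR-101b-3p and miR-26a-5p), and Spearman's rho was 0.952 for each of these pairs. The pools share the injection, the references and the days, and 15.7% to 21.7% of the 115 other miRNAs correlated above 0.9 with a given member, so the order describes these pools alone.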

How the data were processed

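RNA pools of 8 conditions, each of 3 gastrocnemius muscles, were profiled by the authors with LNA-primed SYBR Green RT-qPCR on a mouse and rat miRNA panel. The authors deposited Cp values (second derivative maximum, no normalization), and a table of the ratio of each miRNA to reference miRNAs. That deposited ratio was found to use 4 references (miR-125b-5p, miR-24-3p, miR-16-5p and miR-23a-3p, matched within 0.0067 cycles), whereas the methods name 3. The last of the 3 tables holds the authors' own fold comparisons and was not used. Per-sample columns left out numbered 0. A genome build is not given in the sources used here.

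Relative expression was recomputed from Cp with the mean Cp of those 3 (miR-125b-5p, miR-24-3p, miR-23b-3p). Of 755 assays, 3 were not of a miRNA and 64 were second assays. Ratios were taken where Cp was at most 32 in both pools, and 2-fold counted as a change. Depth has no counterpart in qPCR, and the single pool per condition limits precision. limma 3.58.1 in R 4.3.3 fitted injection, day, their interaction and surgery over the 8 pools, with Benjamini-Hochberg adjustment, and was tested on simulated data. Its p-values rest on how far these pools depart from that model, with 3 residual degrees of freedom per miRNA. The variance of each miRNA was moderated with 4.63 prior degrees of freedom estimated over the 116 miRNAs. Python 3.11.15 with pandas 2.3.3 gave all other values.

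Members and lists were chosen with earlier results of these data known. Named were all members, the 5 miRNAs most correlated with each member measured in all pools, those of the panel with a member's seed, and listed miRNAs that bear on the result. Alternatives were 5 other normalizations, Cp limits of 30 and 34 or none, thresholds of 1.5-fold and 3-fold, a rank correlation, a trended or blocked fit, and leaving out each pool.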

Additional observations from a re-analysis of the deposited data

Results flagged for a closer look

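In CDTX muscle the log2 ratio of SCI over SHAM of miR-26a-5p was 0.49 at D2 and -0.50 at D4, a difference of -0.99 between the days. The pools of the days moved in opposite directions, and this difference was not tested, since each condition has 1 pool. The signs were kept under all 6 normalizations, with a range of 0.37 to 0.66 at D2 and of -0.55 to -0.21 at D4. The difference lies within the largest difference between 2 assays of the same miRNA, 1.07.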

How the results depend on the processing

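No member ratio that passed 2-fold changed sign in any setting run, while the small ratio of miR-26b-5p for CDTX over PBS in SCI at D2 went from -0.10 to 0.32 with miR-23b-3p alone. The count of members at least 2-fold lower with CDTX was 2 (SHAM D2), 2 (SCI D2), 3 (SHAM D4) and 3 (SCI D4). The settings that moved it by over 1.5 times were these, and in all others it differed by at most 1. With miR-23b-3p alone it was 1 (SHAM D2) and 0 (SCI D2). With a Cp limit of 30 it was 1 in SHAM D2, SCI D2 and SHAM D4. At 3-fold it was 0 (SHAM D2), 0 (SCI D2) and 1 (SCI D4). Without a filter it was 5 in SHAM D4 and 5 in SCI D4, by assays past a Cp of 32. For SCI over SHAM, 1 (CDTX D2) and 2 (CDTX D4) passed without a filter. For D4 over D2, PBS + SCI gave 1 without a filter. CDTX + SHAM gave 1 with the global mean, with miR-24-3p alone, without a filter and at 1.5-fold. CDTX + SCI gave 0 with miR-125b-5p alone, 2 at a Cp limit of 34, 3 without a filter, 2 at 1.5-fold and 0 at 3-fold.

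Of the 5 most correlated miRNAs, a rank correlation shared 3 (miR-101-3p), 2 (miR-101b-3p) and 3 (miR-26a-5p). The calls for CDTX by day in limma numbered 6, but 14 with the global mean, 19 with miR-125b-5p alone and 2 at a Cp limit of 30, and 0 to 9 when 1 pool was left out. No member was called for SCI or for CDTX by day in any of these fits. The lowest adjusted p of a member was 0.0957, for miR-26a-5p and CDTX by day. That value came from the fit with the CDTX and PBS pools of a surgery and day as a block, which also made 6 calls. The labels carry no replicate numbers, so no other pairing was run.

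The single pools set the main limit. A Cp near 32 holds few template copies, so miR-26b-5p and the passenger strands are the least precise members, and the error between assays covers neither the pool nor the mouse.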
